A study of Mus musculus with 6 samples.

Results

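The nuclear genome encodes most subunits of the mitochondrial respiratory chain, and these genes were followed in bone marrow-derived macrophages treated with KN93. Members were the entries whose symbol names a subunit of complex I (Nduf genes), complex II (Sdh genes), complex III (Uqcr genes and Cyc1), cytochrome c (Cycs), complex IV (Cox4i to Cox8 genes) or ATP synthase, complex V (Atp5 genes). Symbols containing -ps were left out. This rule used no measured value and gave 91 of the 54446 entries, of which 38 belonged to complex I, 4 to complex II, 9 to complex III, 21 to complex IV, 18 to complex V and 1 was Cycs. Ndufa4 and Ndufa4l2 were counted with complex IV, of which the Ndufa4 protein is a subunit despite its name.

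The cells came from the bone marrow of C57BL/6 mice, 6 weeks old. They were given PBS, a buffer without drug, or KN93 at 5 µM or 10 µM, with 2 samples in each of the 3 groups. KN93 is a small-molecule inhibitor of calcium/calmodulin-dependent protein kinase II and related kinases. No genotype other than the strain is given, nor are the length of treatment and the origin of the samples, so a p-value here sets a difference against sample-to-sample spread that could be purely technical. Values are FPKM, fragments per kilobase of exon scaled to the size of the library, and a log2 change is a difference of group means of log2(FPKM + 1), which understates the change of low genes. A gene was said to rise or fall at an adjusted p under 0.05 in limma, with Benjamini-Hochberg adjustment over all 12722 genes tested, which were those with at least 1 FPKM in at least 2 samples.

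Complex I takes electrons from NADH and complex II takes them from succinate. Complex III passes them to cytochrome c, and complex IV passes them from there to oxygen. Complexes I, III and IV pump protons across the inner mitochondrial membrane, and complex V uses the resulting gradient to make ATP. Every complex except II also holds subunits encoded in the mitochondrial genome, so the nuclear and the mitochondrial genes together supply each of these complexes. In macrophages, the use of oxidative phosphorylation against glycolysis is known to differ between activation states.

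The scale of the 6 libraries implied totals of 24172530 to 28384975 fragments, and the number of genes at 1 FPKM or more was 11964 to 12175 per library. The 10 macrophage markers were all expressed, but their summed level was 21464 to 22064 FPKM with PBS, 16144 to 16630 at 5 µM and 8971 to 9866 at 10 µM. The 10 stromal markers summed to 1788 to 1847, 494 to 594 and 332 to 354 FPKM in the same order. The 9 neutrophil markers summed to 114 FPKM in both PBS samples, to 37.1 and 42.8 at 5 µM and to 5.22 and 7.32 at 10 µM, where Ly6g and Elane were listed at 0. Of the 10 macrophage markers 7 fell and 2 rose at 5 µM, where 15.4% and 15.1% of all genes did. At 10 µM 8 fell and 1 rose, against 22.0% and 28.5% of all genes. At that dose 6 of 8 tested stromal markers and 5 of 5 tested neutrophil markers fell. The part of these other cells in the results below was not tested. In bulk samples, fewer cells of a type and less RNA per cell cannot be told apart.

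Nuclear respiratory genes are often regulated through promoter sites for NRF1, for the ETS factor GABP and for YY1, and so the letters of these motifs were searched in RefSeq promoters (build GRCm38.p6, from 250 bases before to 50 after the start). The motifs were GCGCA, any base and GCGC for NRF1, CCGGAAGT for ETS factors and AAGATGGCG for YY1, on both strands. Of the 80 members tested, 62 had a promoter in the table, with 67 entries. The NRF1 letters stood in 26.9% of these entries and in 4.60% of all 32851 promoters, the ETS letters in 7.46% against 3.89%, and the YY1 letters in 10.4% against 1.40%. At least one of the motifs stood in 41.8% of the member entries and in 9.24% of all promoters. A match is a description of the sequence only. By outcome at 10 µM, 3 of the 6 entries of members that rose and 8 of the 16 entries of members that fell held one of the motifs.

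The promoters of 5 members are shown, from 180 bases before the start to at least 30 after it, with motif letters in capitals. Sdha, the catalytic flavoprotein of complex II, and Cox6a1, the widely expressed isoform of a complex IV subunit, show repeated NRF1 letters. Ndufs7 has the YY1 letters after its start and is the complex I subunit with the largest rise to pass the test at 5 µM. Ndufs8 and Ndufa4 had the largest falls at 10 µM, and none of the 3 motifs stood in their promoter entries. Cox6a2 is named only. The windows are on the minus strand at chr13:74350211-74350420 for Sdha, chr5:115348929-115349138 for Cox6a1, chr19:3912745-3912954 for Ndufs8 and chr6:11907421-11907630 for Ndufa4, and on the plus strand at chr10:80249269-80249481 for Ndufs7.
Sdha: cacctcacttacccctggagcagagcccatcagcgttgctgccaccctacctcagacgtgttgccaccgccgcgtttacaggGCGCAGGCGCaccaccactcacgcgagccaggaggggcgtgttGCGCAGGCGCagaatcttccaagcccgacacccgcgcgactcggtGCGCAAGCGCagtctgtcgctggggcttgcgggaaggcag
Cox6a1: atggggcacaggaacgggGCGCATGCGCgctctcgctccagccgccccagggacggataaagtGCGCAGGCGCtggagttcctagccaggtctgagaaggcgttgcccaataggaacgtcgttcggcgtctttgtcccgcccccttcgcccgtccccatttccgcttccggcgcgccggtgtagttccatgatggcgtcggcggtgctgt
Ndufs7: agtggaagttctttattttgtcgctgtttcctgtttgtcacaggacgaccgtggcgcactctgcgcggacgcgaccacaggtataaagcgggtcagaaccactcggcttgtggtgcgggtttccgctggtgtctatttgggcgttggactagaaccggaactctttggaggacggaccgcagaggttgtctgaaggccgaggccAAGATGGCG
Ndufs8: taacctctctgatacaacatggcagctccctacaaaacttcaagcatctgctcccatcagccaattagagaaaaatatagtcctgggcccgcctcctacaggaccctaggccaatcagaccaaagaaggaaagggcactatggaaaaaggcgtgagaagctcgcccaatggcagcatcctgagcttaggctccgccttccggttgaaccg
Ndufa4: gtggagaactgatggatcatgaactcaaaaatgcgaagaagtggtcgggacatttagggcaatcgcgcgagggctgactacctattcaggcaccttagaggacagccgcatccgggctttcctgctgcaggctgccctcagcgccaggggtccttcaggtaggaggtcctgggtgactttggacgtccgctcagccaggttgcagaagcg

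Of the 91 members, 80 passed the filter on low values: 35 of complex I, all 4 of complex II, all 9 of complex III, Cycs, 14 of complex IV and 17 of complex V. The other 11 were Ndufa11b, Ndufb2, Ndufs6b, Cox4i2, Cox6b2, Cox7a1, Cox7b2, Cox8b, Cox8c, Ndufa4l2 and a second entry of Atp5o. None of these exceeded 1.116 FPKM in any sample, and Cox8b and the second Atp5o entry were listed at 0 in all 6. Most of them are isoforms known from muscle, lung or testis, or copies. With PBS, the group means of the tested members ran from 1.30 FPKM for Cox6a2 to 192 FPKM for Cox4i1, with a median of 33.3 FPKM. The members with the highest PBS mean in complexes I, II, III, IV and V were Ndufa2 (133 ± 0.915 FPKM), Sdhd (102 ± 3.13), Uqcr10 (79.7 ± 3.14), Cox4i1 (192 ± 2.75) and Atp5a1 (173 ± 1.36; each SD, n = 2).

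With 5 µM KN93, the nuclear respiratory genes differed little from PBS, and those called were mostly higher. Of the 80 tested members 16 rose and 1 fell, while of all genes tested 15.1% rose and 15.4% fell (30.5% either way). The log2 difference was above 0 for 61 of the 80 members (76.25% against 52.6% of all genes). The members' median log2 change was 0.08 against 0.01 for all genes, and single members ran from -0.28 to 0.92. For 73 of the 80 members the difference was smaller than 1.25-fold, which was so for 74.4% of all genes. Both 5 µM samples stood above both PBS samples for 44 members (55% against 37.0% of all genes). The calls were small and sensitive: 3 of the 17, Cox6a2, Ndufs7 and Sdhb, held in all 15 alternatives, and 3 or 6 members rose without the first or the second PBS sample and 4 or 7 without the first or the second 5 µM sample. The single fall was lost without any one of these 4 samples. With median-of-ratios scaling 8 members rose and 2 fell, and 7 rose with no filter or without the intensity trend.

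With 10 µM KN93, a smaller share of the members than of all genes rose, and a similar share fell. Of all genes 28.5% rose and 22.0% fell (50.5% either way). Of the members 9 rose and 17 fell, which is 11.25% and 21.25% (32.5% either way). Their median was -0.05 against 0.05 for all genes, with a range of -0.87 to 3.19, and again 73 of 80 differed by less than 1.25-fold (59.8% of all genes). Leaving out a sample gave 1 or 2 rises and 10 falls without the first or the second PBS sample, 5 rises without either 5 µM sample, 12 rises and 9 falls without the first 10 µM sample, where the median was 0.02, and 2 rises without the second. Median-of-ratios scaling gave 2 members that rose and 23 that fell, and of all genes 2857 that rose and 3288 that fell in place of 3631 and 2796. With no filter, without the trend or with only the groups compared 5 members rose, and with voom 3. Of the 26 calls, 8 held in all 15 alternatives: those of Cox6a2, Ndufs8, Ndufa4, Ndufb8, Cox6c, Atp5a1, Atp5j2 and Atp5o, of which the last 4 and Ndufb8 fell by 0.23 to 0.38 on the log2 scale.

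Between the doses, 1 member rose and 17 fell (11.4% and 8.50% of all genes, 19.9% either way), and the median was -0.12 against 0.04 for all genes. Without either 5 µM sample 3 members fell, and without the first 10 µM sample 7, while 8 fell with no filter and 30 with voom. The mean at 5 µM was the highest of the 3 groups for 49 of the 80 members (61.25%), which was so for 18.2% of all genes. The step from 5 to 10 µM differed from the step from PBS to 5 µM for 6 members, upward for Cox6a2 and downward for Ndufs7, Ndufa9, Sdhb, Cox8a and Atp5d (2.88% of all genes upward, 2.48% downward, 5.36% either way). None of these 6 held in all 14 alternatives, and with single samples left out between 0 and 2 members fell and 0 or 1 rose. With no filter 0 fell, and with voom 16. The comparisons against PBS share the PBS samples. In them 46 members were called at neither dose, 8 rose at both, and Ndufs8 fell at both. The same was not counted over all genes, of which 30.5% were called at 5 µM and 50.5% at 10 µM. Whether these counts are unusual can therefore not be told.

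Replicates of a group differed in level over these genes. In the second 10 µM sample 75 of the 80 members stood higher than in the first (93.75% against 49.0% of all genes), and in the first 5 µM sample 64 stood higher than in the second (80% against 51.4%). Between the PBS samples 45 of 80 were higher in the second. The members' summed level was 3611 and 3624 FPKM with PBS, 3982 and 3826 with 5 µM, and 3289 and 3589 with 10 µM. Both 5 µM sums therefore stood above and both 10 µM sums below the PBS sums, while the 2 samples at 10 µM differed more from each other than the second did from PBS.

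**Figure D1:**
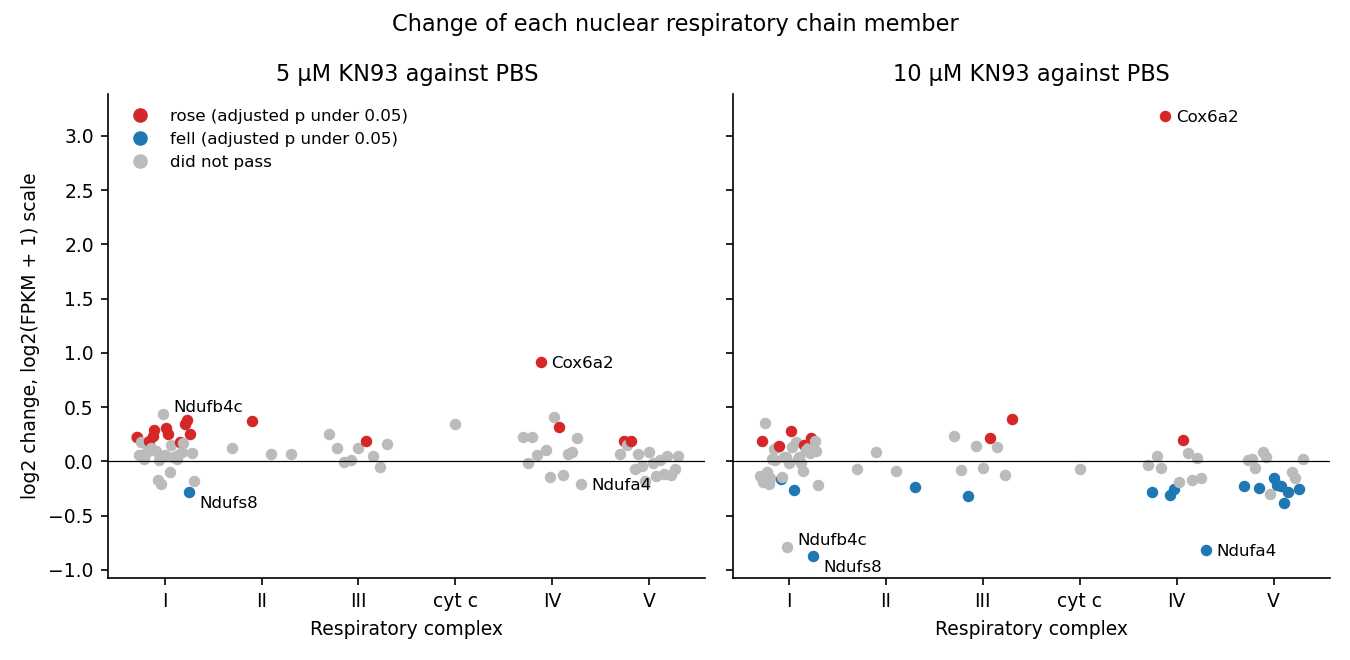
Log2 change, on the log2(FPKM + 1) scale, of each of the 80 tested nuclear members at 5 µM (left) and 10 µM (right) against PBS, by respiratory complex, 1 point per gene. Red points rose, blue points fell and grey points did not pass the test; nearly all points lie close to 0, with Cox6a2 at 0.92 and 3.19 and with Ndufs8 at -0.87 and Ndufa4 at -0.81 at 10 µM.

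The largest change of any member was in an isoform of complex IV. Cox6a2 encodes the heart and skeletal muscle form of subunit 6A, a small protein at the interface of the complex IV dimer. It lies at chr7:128205435-128206387 on the minus strand (GRCm38). Its level was 1.15 and 1.45 FPKM with PBS, 3.29 and 3.40 with 5 µM, and 19.6 and 20.3 with 10 µM, from 21 and 28, 59 and 64, and 322 and 391 recovered fragments. The groups did not overlap, and each dose stood above the group before it. The rise was 2.57-fold in mean FPKM at 5 µM (log2 change 0.92 ± 0.08 SE, limma adjusted p = 0.00107) and 15.3-fold at 10 µM (3.19 ± 0.08, limma adjusted p = 1.3e-05). Both calls, and that between the doses (log2 change 2.27, limma adjusted p = 0.000336), held in all 15 alternatives. The larger second step (log2 difference 1.35, limma adjusted p = 0.0179) held in 8 of 14, with adjusted p up to 0.127.

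Cox6a1, the form of the same subunit found in most tissues, was far more abundant. Its level was 193 and 190 FPKM with PBS, 208 and 193 with 5 µM, and 173 and 195 with 10 µM. Those groups overlapped, and no difference from PBS passed the test (log2 change 0.06, limma adjusted p = 0.559, and -0.06, limma adjusted p = 0.535). Cox6a2 made up 0.590% and 0.758% of the summed FPKM of both isoforms with PBS, 1.56% and 1.73% with 5 µM, and 10.1% and 9.40% with 10 µM. The isoforms share 66.6% of 290 aligned coding bases, and no annotated copy of Cox6a2 passed 90% identity over 80% of its coding sequence. Exons of the antisense gene Itgad overlap 10.3% of its exon bases. Itgad itself was between 0.133 and 0.423 FPKM and was lowest at 10 µM, where Cox6a2 was highest.

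Other isoforms that are best known from muscle or other specialised tissues stayed low. Cox7a1 and Cox8b, the muscle forms of 2 further complex IV subunits, did not exceed 0.593 and 0 FPKM in any sample. Cox6b2, known from testis, reached at most 0.704 FPKM. Cox4i2, a form of subunit 4 known from lung, was 0.142 and 0.134 FPKM with PBS, 0.530 and 0.412 with 5 µM, and 0.630 and 0.313 with 10 µM. All KN93 samples stood above the PBS samples, at levels below the filter, so no test was made. Ndufa4l2, a paralog of Ndufa4 known as a hypoxia-responsive gene, ran from 0.193 to 0.831 FPKM, with both extremes at 10 µM.

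Complex I showed rises at 5 µM and its largest fall in a core subunit. Of its 35 tested members 10 rose and 1 fell at 5 µM, and 5 rose and 3 fell at 10 µM, with medians of 0.10 and 0.04. The share that rose was 28.6% at 5 µM, against 15.1% of all genes, and 14.3% at 10 µM, against 28.5%. The share that fell at 10 µM was 8.57%, against 22.0%, so fewer of its members than of all genes were called there in either direction. Among the 7 core subunits, which carry the redox centres, 3 rose and 1 fell at 5 µM. These shares of 42.9% and 14.3% rest on few genes and stand beside 15.1% and 15.4% of all genes. Ndufs8 (chr19:3908863-3912774, minus strand), which binds iron-sulfur clusters on the way to quinone, was 58.6 and 57.6 FPKM with PBS, 46.7 and 48.7 with 5 µM, and 30.2 and 32.5 with 10 µM. It fell step by step with no overlap between groups, and its mean was 46.0% lower at 10 µM than with PBS. The log2 change was -0.28 ± 0.05 SE at 5 µM (limma adjusted p = 0.014) and -0.87 ± 0.05 at 10 µM (limma adjusted p = 0.000137). The 10 µM call held in all 15 alternatives, and the 5 µM call was lost without any one of the 4 PBS and 5 µM samples, with adjusted p up to 0.0782. No annotated copy of Ndufs8 and no overlapping exon was found.

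Its neighbour in the complex, Ndufs7, carries the last iron-sulfur cluster before quinone and went the other way. Its values were 41.3 and 41.0 FPKM with PBS, 54.7 and 53.5 with 5 µM, and 45.9 and 49.97 with 10 µM. Every KN93 sample stood above the PBS samples, and both 5 µM samples stood above both at 10 µM. The rise was 0.39 ± 0.05 at 5 µM (limma adjusted p = 0.00526), which held in all alternatives, and 0.21 ± 0.05 at 10 µM (limma adjusted p = 0.0203), which was lost in 5 of 15. Ndufv1, the core subunit that binds NADH, rose at 5 µM from 26.5 ± 0.166 to 31.8 ± 2.61 FPKM and was 30.4 ± 1.75 at 10 µM, where it did not pass the test. Its 5 µM call held in only 5 of 15 alternatives. Ndufs3, another core subunit, rose at both doses, by 0.18 and 0.15 on the log2 scale. Those calls held in 8 and 3 of 15 alternatives.

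Accessory subunits of complex I surround the core and serve its assembly and stability. Of 28 tested, 7 rose at 5 µM, and 3 rose and 2 fell at 10 µM. The share that rose at 5 µM was 25%, against 15.1% of all genes. At 10 µM 10.7% rose and 7.14% fell, both below the 28.5% and 22.0% of all genes. Ndufb6 rose from 36.3 ± 0.812 FPKM to 45.1 ± 2.49 at 5 µM and 44.3 ± 4.78 at 10 µM, calls that held in 7 and 5 of 15 alternatives. Ndufa9 rose from 32.5 ± 0.716 to 39.9 ± 0.822 and 35.9 ± 0.773 FPKM, although the 10 µM call held in only 2 of 15 alternatives. Ndufs6, which binds zinc, rose at 5 µM from 31.9 ± 0.593 to 40.8 ± 4.79 FPKM, as did Ndufb7 from 14.8 ± 0.241 to 17.9 ± 0.701. The call of Ndufs6 held in 8 and that of Ndufb7 in 7 of 15 alternatives. Ndufa10 rose at both doses, by 0.22 and 0.18 on the log2 scale, calls that held in 7 and 3 of 15 alternatives. Ndufa1 fell between the doses (log2 change -0.36, limma adjusted p = 0.0218, kept in 11 of 15 alternatives). Ndufb8 fell at 10 µM from 12.1 ± 0.167 to 9.92 ± 0.124 FPKM. The exons of Ndufb6 overlap those of the antisense gene Smim27 over 39.0% of their bases, and without a stated use of strand their fragments cannot be told apart. The highest accessory subunit, Ndufa2, was 134 and 132 FPKM with PBS, 141 and 130 with 5 µM, and 106 and 124 with 10 µM, and was called in no comparison against PBS.

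In complex II, which also belongs to the citric acid cycle, the iron-sulfur subunit and a membrane anchor were called at different doses. Sdhb was 59.0 and 59.7 FPKM with PBS, 76.8 and 77.5 with 5 µM, and 60.1 and 65.8 with 10 µM. Both 5 µM samples stood above all others, and both 10 µM samples stood above both PBS samples. Sdhb rose by 0.37 ± 0.06 at 5 µM (limma adjusted p = 0.00628), was 0.08 above PBS at 10 µM (limma adjusted p = 0.261), and its 2 steps differed by -0.67 (limma adjusted p = 0.0295, kept in 8 of 14 alternatives). Sdhd, an anchor in the membrane, was 100.01 and 104 FPKM with PBS, 106 and 108 with 5 µM, and 84.7 and 88.4 with 10 µM. It fell at 10 µM by 0.24 ± 0.05 (limma adjusted p = 0.00964) and was 0.07 above PBS at 5 µM, which did not pass the test. Sdha and Sdhc were not called against PBS.

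In complex III 1 of 9 members rose at 5 µM, and 2 rose and 1 fell at 10 µM. These shares of 11.1%, 22.2% and 11.1% were below those of all genes (15.1%, 28.5% and 22.0%). Uqcrq, a small subunit near cytochrome b, was 32.4 and 31.8 FPKM with PBS, 38.3 and 33.6 with 5 µM, and 39.6 and 45.5 with 10 µM. Its 10 µM samples stood above all others, a rise of 0.39 ± 0.09 (limma adjusted p = 0.0143) that was lost without either PBS sample or without the second 10 µM sample. Uqcrc2, a core subunit facing the matrix, rose from 35.1 ± 1.41 to 40.0 ± 0.740 FPKM at 5 µM and 40.8 ± 0.429 at 10 µM. Its calls held in 3 and 12 of 15 alternatives. Exons of the antisense gene Pdzd9 overlap 19.7% of its exon bases. Uqcr11 fell at 10 µM, from 75.6 ± 1.04 to 60.4 ± 2.34 FPKM. Cycs, the soluble carrier between complexes III and IV, was 7.81 and 10.1 FPKM with PBS, 11.9 and 11.2 with 5 µM, and 8.19 and 8.66 with 10 µM, and passed neither test against PBS. A 100% identical copy, Gm10053, was listed at a higher level and rose at 10 µM, with values given below.

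In complex IV, 2 of 14 tested members rose at 5 µM, and at 10 µM 2 rose and 4 fell. The rises at 5 µM (14.3% against 15.1% of all genes) and the falls at 10 µM (28.6% against 22.0%) were near the shares of all genes, and the rises at 10 µM (14.3% against 28.5%) were below. Besides Cox6a2, Cox7a2, the common form of subunit 7A, rose at both doses, from 42.8 ± 0.688 to 53.6 ± 2.87 and 49.2 ± 2.52 FPKM. The Cox7a2 calls held in 12 of 15 alternatives at 5 µM and in 6 at 10 µM. Ndufa4 (chr6:11900292-11907497, minus strand) was 39.3 and 37.8 FPKM with PBS, 34.1 and 32.2 with 5 µM, and 20.3 and 22.8 with 10 µM. The groups did not overlap, and the 10 µM mean was 44.1% below PBS. The log2 change was -0.21 ± 0.07 at 5 µM, which missed the threshold (limma adjusted p = 0.0687), and -0.81 ± 0.07 at 10 µM (limma adjusted p = 0.000398), which held in all 15 alternatives. Both annotated copies of Ndufa4 were listed at 0 in every sample. Whether its steps differ from each other did not pass the test (log2 difference -0.39, limma adjusted p = 0.117).

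The other 3 members of complex IV that fell at 10 µM are structural subunits. Cox6b1 fell from 188 ± 4.31 to 152 ± 10.4 FPKM, Cox5a from 35.7 ± 3.19 to 29.0 ± 0.562, and Cox6c from 15.0 ± 0.0202 to 12.4 ± 0.633. Cox4i1, the common form of the regulatory subunit 4, was 194 and 190 FPKM with PBS, 224 and 226 with 5 µM, and 177 and 199 with 10 µM. It did not pass the test against PBS at either dose, and was lower at 10 µM than at 5 µM (log2 change -0.26, limma adjusted p = 0.0459, kept in 6 of 15 alternatives). Cox8a likewise fell between the doses, from 218 ± 7.003 to 169 ± 4.74 FPKM.

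**Figure D2:**
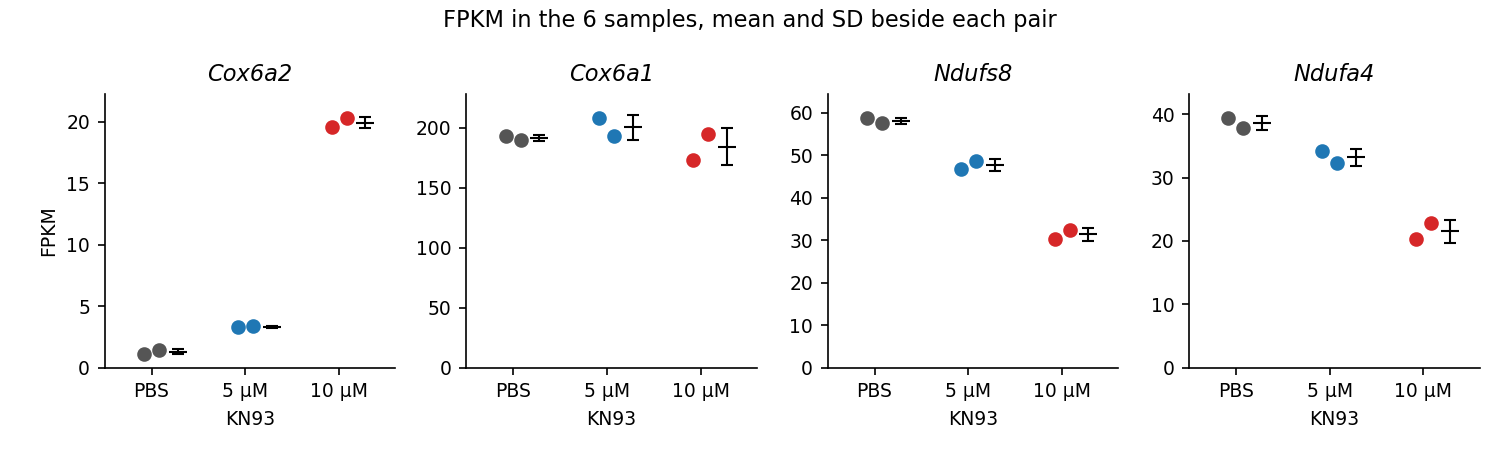
FPKM of Cox6a2, Cox6a1, Ndufs8 and Ndufa4 in the 6 samples, with a point per sample and, beside each pair, the mean and SD (n = 2). Cox6a2 stands at 19.6 and 20.3 FPKM at 10 µM against 1.15 and 1.45 with PBS, Cox6a1 overlaps between groups, and Ndufs8 and Ndufa4 are lowest at 10 µM.

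In complex V 8 of 17 members fell at 10 µM, with a median of -0.15, and at 5 µM Atp5b and Atp5d rose. The falls are 47.1% of the members tested, against 22.0% of all genes, and the rises at 5 µM are 11.8%, against 15.1%. In limma 0 rose at 10 µM, which was also so at an unadjusted p under 0.05 and with voom, where 8 fell. Atp5a1, the alpha subunit of the catalytic head, was 174 and 172 FPKM with PBS, 180 and 183 with 5 µM, and 147 and 148 with 10 µM. Both 10 µM samples stood below all others, with a log2 change of -0.23 ± 0.04 (limma adjusted p = 0.0073). Its partner Atp5b, the catalytic beta subunit, was 138 and 141 FPKM with PBS, 162 and 157 with 5 µM, and 140 and 142 with 10 µM. It rose at 5 µM (log2 change 0.19, limma adjusted p = 0.0278, kept in 9 of 15 alternatives) and was 0.02 above PBS at 10 µM (limma adjusted p = 0.778). Atp5d rose by 0.19 at 5 µM (limma adjusted p = 0.0222, kept in 11 of 15 alternatives). Its 2 steps differed by -0.43 (limma adjusted p = 0.0373, kept in 5 of 14 alternatives).

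Subunits of the stalk and the membrane part made up the rest of the falls in complex V. Atp5j2, the f subunit of the membrane part, was 29.7 and 28.7 FPKM with PBS, 29.7 and 29.1 with 5 µM, and 20.9 and 23.6 with 10 µM. The first 2 groups overlapped and both 10 µM samples stood below them, with a log2 change of -0.38 ± 0.07 (limma adjusted p = 0.00539). Atp5o, the subunit that ties the stalk to the head, fell from 18.6 ± 0.0486 to 15.4 ± 0.806 FPKM, and Atp5k, the e subunit, from 38.2 ± 1.35 to 31.3 ± 2.74. The exons of Atp5o share 47.9% of their bases with other annotated genes. The remaining falls were Atp5e, Atp5g3, Atp5h and Atp5j, by 0.15 to 0.25 on the log2 scale. In that order these calls held in 6, 5, 13 and 9 of 15 alternatives. For Atp5h, a subunit of the stalk, the levels were 30.9 and 33.3 FPKM with PBS, 31.9 and 31.7 with 5 µM, and 27.02 and 28.04 with 10 µM, and a near-identical copy, Gm10250, was listed at a higher level than the gene.

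The Atp5g genes encode the identical mature c subunit that forms the rotor ring of complex V, and they differed in listed level. Atp5g3 was listed highest of them, at 59.2 and 59.1 FPKM with PBS, 64.7 and 60.7 with 5 µM, and 52.0 and 54.0 with 10 µM. At that dose it fell (log2 change -0.15, limma adjusted p = 0.0469), a call that held in 5 of 15 alternatives. Atp5g2 was 5.30 and 7.52, 8.34 and 3.49, and 7.14 and 3.37 FPKM in the same order, so replicates differed more than groups. Atp5g1 ran from 2.27 to 2.73 FPKM over all samples. Gm10039, a copy 99.8% identical to Atp5g1, had a mean of 129 FPKM. Gm10231, a copy 100% identical to Atp5g2, reached 215 FPKM in 1 sample. How shared fragments were assigned is not known, so the order of the Atp5g genes and the replicate differences of Atp5g2 are uncertain.

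Several members have near-identical processed copies elsewhere in the genome, which matters for reading their levels. A search for annotated genes with at least 90% identity over at least 80% of the coding sequence found copies of 37 of the 91 members. For 9 tested members, Ndufa12, Ndufb4, Cox6c2, Cox7c, Atp5g1, Atp5g2, Atp5h, Atp5l and Cycs, a copy was listed at or above the member's own mean, and of these only Atp5h was called against PBS. Its copy Gm10250, with 99.0% identity, was 72.7 and 74.6 FPKM with PBS, 73.1 and 66.1 with 5 µM, and 59.6 and 70.8 with 10 µM. The copy's log2 change at 10 µM was -0.18 (limma adjusted p = 0.163), and that of Atp5h -0.21 (limma adjusted p = 0.0188), lost without the second PBS or the first 10 µM sample. For Cox6c2, itself a processed copy, the higher entry is Cox6c. Cox7c was 12.0 to 14.6 FPKM, while its copy Gm12338, with 100% identity, was 312 to 388 FPKM. Atp5l was 1.73 to 2.27 FPKM against 266 to 324 for Gm10221 (100% identity). Atp5g1 stood beside Gm10039 (99.8% identity) at 114 to 142 FPKM, and Ndufa12, at 5.38 to 8.78 FPKM, beside Gm15920 (99.5%) at 51.7 to 75.1. How the authors counted fragments that match more than one place is not given in the sources used here, so the low levels of these members are uncertain.

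Some copies also varied between replicates. Gm10231, with 100% identity to Atp5g2, was listed at 115 and 0.240 FPKM with PBS, 0 and 215 with 5 µM, and 0 and 0.0799 with 10 µM. Gm10108, 99.4% identical to Cycs, was 24.0 and 3.10, 2.26 and 2.38, and 39.0 and 34.9 FPKM in the same order. Another copy of Cycs, Gm10053 (100%), is annotated as protein-coding and varied less. It was 19.7 and 16.9 FPKM with PBS, 20.4 and 20.6 with 5 µM, and 24.7 and 24.5 with 10 µM, above Cycs in every sample. Unlike Cycs, Gm10053 rose at 10 µM (log2 change 0.41, limma adjusted p = 0.00609). A further copy of Cycs, Gm13772 (99.4%), was 0.703 and 4.56 FPKM with PBS. Ndufb4c, a processed copy that the naming rule counts as a member, was 4.67 and 13.03, 8.08 and 15.0, and 3.92 and 4.43 FPKM, beside 1.13 to 1.96 FPKM for Ndufb4. Ndufs7, Ndufs8, Sdhb and Cox6a2 had no such copy.

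**Figure D3:**
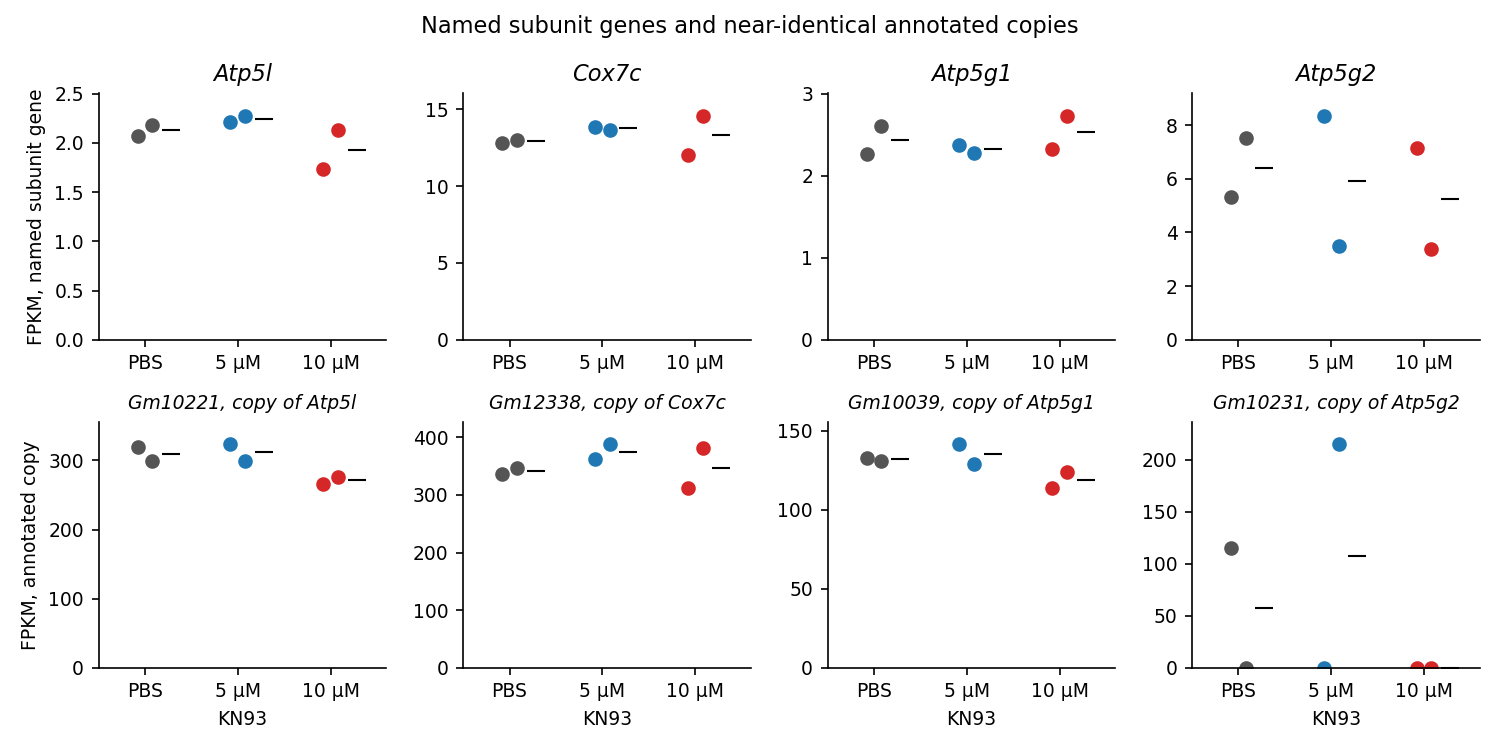
FPKM of 4 members (top) and of a near-identical annotated copy of each (bottom) in the 6 samples, with a point per sample and a dash for the mean of each pair. The scales differ: the copies of Atp5l, Cox7c and Atp5g1 stand far above the named genes, and the copy of Atp5g2 is at 115 and 215 FPKM in 1 PBS and 1 of the 5 µM samples and near 0 in the other 4.

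The 13 subunits encoded in the mitochondrial genome went lower than their nuclear partners. Of them 6 fell at 5 µM and 8 at 10 µM, with medians of -0.52 and -1.35. These are 46.2% and 61.5%, against 15.4% and 22.0% of all genes. In limma 0 rose at either dose, which was also so at an unadjusted p under 0.05 and with voom. mt-Nd1, a complex I subunit, was 504 and 542 FPKM with PBS, 387 and 320 with 5 µM, and 147 and 157 with 10 µM, with no overlap (log2 change -1.78, limma adjusted p = 0.00011 at 10 µM). mt-Cytb, the cytochrome of complex III, fell by 1.35 at 10 µM. mt-Nd2 and mt-Nd6 fell by 1.63 and 0.99. Their summed level as a share of the nuclear members' sum was 214% and 238% with PBS, 110% and 161% with 5 µM, and 123% and 81.9% with 10 µM, so every KN93 sample lay below both PBS samples.

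Some mitochondrial transcripts varied greatly between replicates, and the sums rest in part on them. mt-Nd3 was listed at 3.95 and 96.2 FPKM in the PBS samples, and mt-Nd4l at 3.25 and 121. mt-Co3 was 120 and 814 FPKM and mt-Atp6 98.1 and 594 FPKM in the 5 µM samples. These 4 and mt-Co2 have unprocessed pseudogene copies on chromosome 1 with at least 99.7% identity, which reached at most 52.8 FPKM. mt-Nd3, mt-Nd4l, mt-Co3, mt-Atp6 and mt-Atp8 passed neither test against PBS.

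By complex, the sums over the listed nuclear members stayed within a narrow band. At 5 µM the mean sum was 1.09 times that of PBS for complex I, 1.12 for II, 1.07 for III, 1.08 for IV and 1.05 for V. At 10 µM it was 0.971 for complex I, 0.934 for II, 1.01 for III, 0.938 for IV and 0.911 for V. The complex III value is 0.960 with median-of-ratios scaling. Both 10 µM samples lay below both PBS samples for complexes II, IV and V, and complexes I and III overlapped. These sums leave out near-identical copies, some of them listed at high levels. Over all samples Gm10221 and Gm10039 had means of 297 and 129 FPKM, beside a complex V sum of 748 with PBS. Gm12338 had a mean of 355 FPKM, beside a complex IV sum of 1089. The sums therefore depend on how shared fragments were assigned, which is not known. The sum of the mitochondrially encoded subunits was 0.644 times that of PBS at 5 µM and 0.428 times at 10 µM. With 2 samples a group no exact permutation test of a sum could pass, and none was made.

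**Figure D4:**
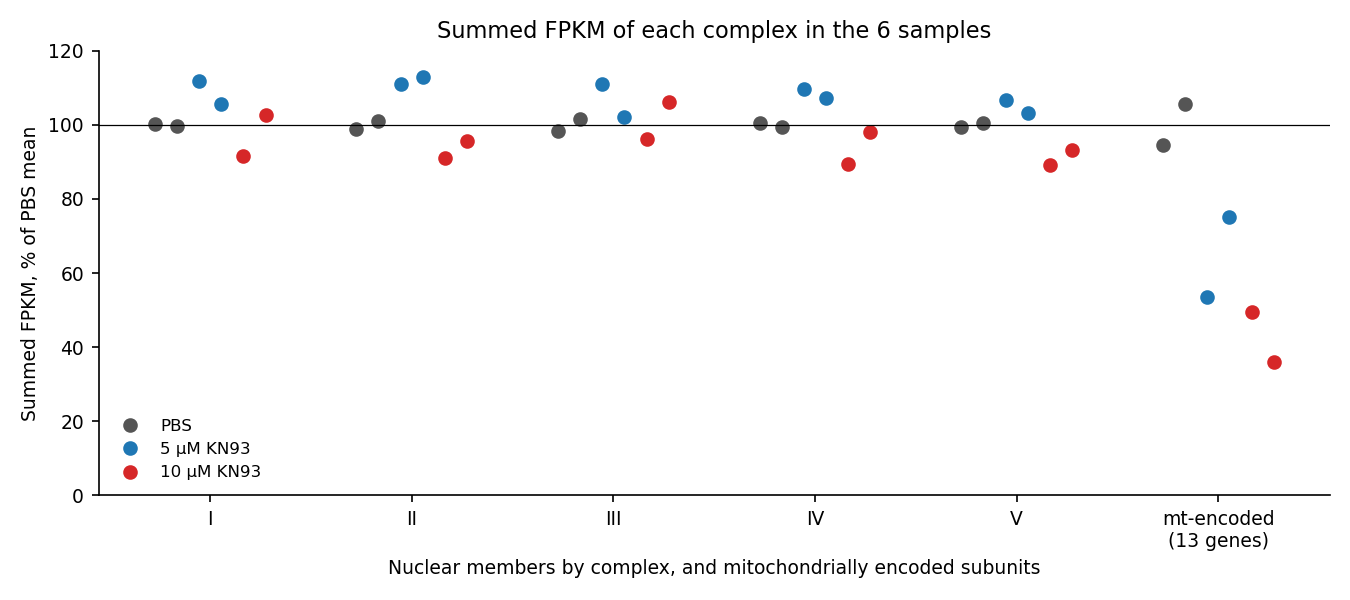
Summed FPKM of the nuclear members of each complex and of the 13 mitochondrially encoded subunits, as a percent of the mean of the PBS samples, with a point per sample. Near-identical copies that are not members are left out of the sums. The nuclear complexes stay near 100%, with 5 µM above and most 10 µM samples below, while every KN93 sample of the mitochondrially encoded sum lies below the PBS samples.

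Assembly factors of the complexes, which help build them without staying in them, were called upward more often than downward. Of 15 complex I factors 4 rose at 5 µM and 9 at 10 µM, with a median of 0.31 at 10 µM. These are 26.7% and 60%, against 15.1% and 28.5% of all genes. In limma 0 of them fell at 10 µM, also at an unadjusted p under 0.05, and 1 fell with voom. Ecsit was 5.15 and 4.96 FPKM with PBS, 6.998 and 7.13 with 5 µM, and 7.94 and 8.14 with 10 µM, with no overlap (log2 change 0.58, limma adjusted p = 0.000416 at 10 µM). Timmdc1 and Tmem186 rose by 0.50 and 0.31. Of 20 complex IV factors 4 rose at 5 µM and 8 at 10 µM, while 0 fell in limma, 0 at an unadjusted p under 0.05 and 0 with voom, in which 6 rose at 10 µM. The rises are 20% and 40%, closer to the shares of all genes than those of the complex I factors. Among those were Surf1, which rose from 15.0 ± 0.957 to 20.7 ± 0.121 FPKM at 10 µM, Taco1, an activator of mt-Co1 translation, and Sco1, a copper chaperone. Of 8 factors of complexes II and III, 2 rose (Sdhaf1 and Uqcc1) and 1 fell (Sdhaf2) at 10 µM, and of 3 factors of complex V, Atpaf1 rose and Tmem70 fell. The 25% and 12.5% of the 8 factors are below the 28.5% and 22.0% of all genes. For the 3 complex V factors each share is 33.3% and rests on few genes.

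Regulators of the nuclear respiratory genes had log2 changes from -0.19 to 0.32 at 10 µM, on a scale that understates low genes such as Ppargc1b. Of 7 tested, 1 rose at 5 µM, and 3 rose and 2 fell at 10 µM. These shares of 14.3%, 42.9% and 28.6% rest on few genes and stand beside 15.1%, 28.5% and 22.0% of all genes. Esrra, a nuclear receptor that acts with PGC-1 coactivators, was 23.3 and 23.2 FPKM with PBS, 26.5 and 27.8 with 5 µM, and 27.2 and 27.3 with 10 µM, a rise of 0.22 (limma adjusted p = 0.00964). Ppargc1b, such a coactivator, rose at 10 µM from 1.47 ± 0.0296 to 2.10 ± 0.200 FPKM. Yy1 fell from 12.6 ± 0.0795 to 10.9 ± 0.0610 FPKM at 10 µM.

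Genes for the transcription and upkeep of mitochondrial DNA were called in both directions at 10 µM, 4 rising and 2 falling of 10, with 1 rising at 5 µM. The falls (20%) and the rise at 5 µM (10%) were near or below the shares of all genes, 22.0% and 15.1%, and the rises at 10 µM (40%) stood above 28.5%. Lrpprc, which stabilises mitochondrial mRNAs, was 7.07 and 7.37 FPKM with PBS, 9.09 and 9.48 with 5 µM, and 10.1 and 9.77 with 10 µM, and rose by 0.41 at 10 µM (limma adjusted p = 0.0016). Ssbp1 and Twnk, which bind and unwind mitochondrial DNA, rose by 0.38 and 0.45. These rises and the falls of the mitochondrially encoded subunits come from the same comparison at 10 µM, and a link between them was not tested.

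In the pathways that feed the chain, rises were about as frequent as over all genes. Of 16 genes of pyruvate dehydrogenase and the citric acid cycle 3 rose at 5 µM (18.75% against 15.1% of all genes), and 5 rose (31.25% against 28.5%) and 4 fell (25% against 22.0%) at 10 µM. The subunits of pyruvate dehydrogenase E1 diverged, with Pdhb rising from 11.5 ± 0.473 to 16.9 ± 0.891 FPKM and Pdha1 falling from 30.3 ± 0.443 to 25.1 ± 0.487 at 10 µM. Of 16 glycolytic genes 3 rose and 1 fell at 5 µM, and 5 rose and 2 fell at 10 µM. The rises are the same shares as in the citric acid cycle list, and the falls, 6.25% and 12.5%, were below those of all genes (15.4% and 22.0%). Hk3, a hexokinase of myeloid cells, was 102 and 98.1 FPKM with PBS, 160 and 176 with 5 µM, and 240 and 230 with 10 µM, a rise of 1.23 (limma adjusted p = 7.84e-05 at 10 µM). Pgam1 and Aldoa rose by 0.63 and 0.56.

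Subunits and regulators that the naming rule leaves out were few. Of 5 tested, Higd1a rose at 10 µM by 0.33 and the other 4 did not pass the test at that dose. This share of 20% was below the 28.5% of all genes that rose. Ndufab1, the acyl carrier protein in complex I, ran from 1.60 to 2.28 FPKM. Ndufb1-ps, whose symbol excluded it, was 25.8 and 28.6 FPKM with PBS, 30.2 and 27.8 with 5 µM, and 28.02 and 34.2 with 10 µM, with overlapping groups.

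**Figure D5:**
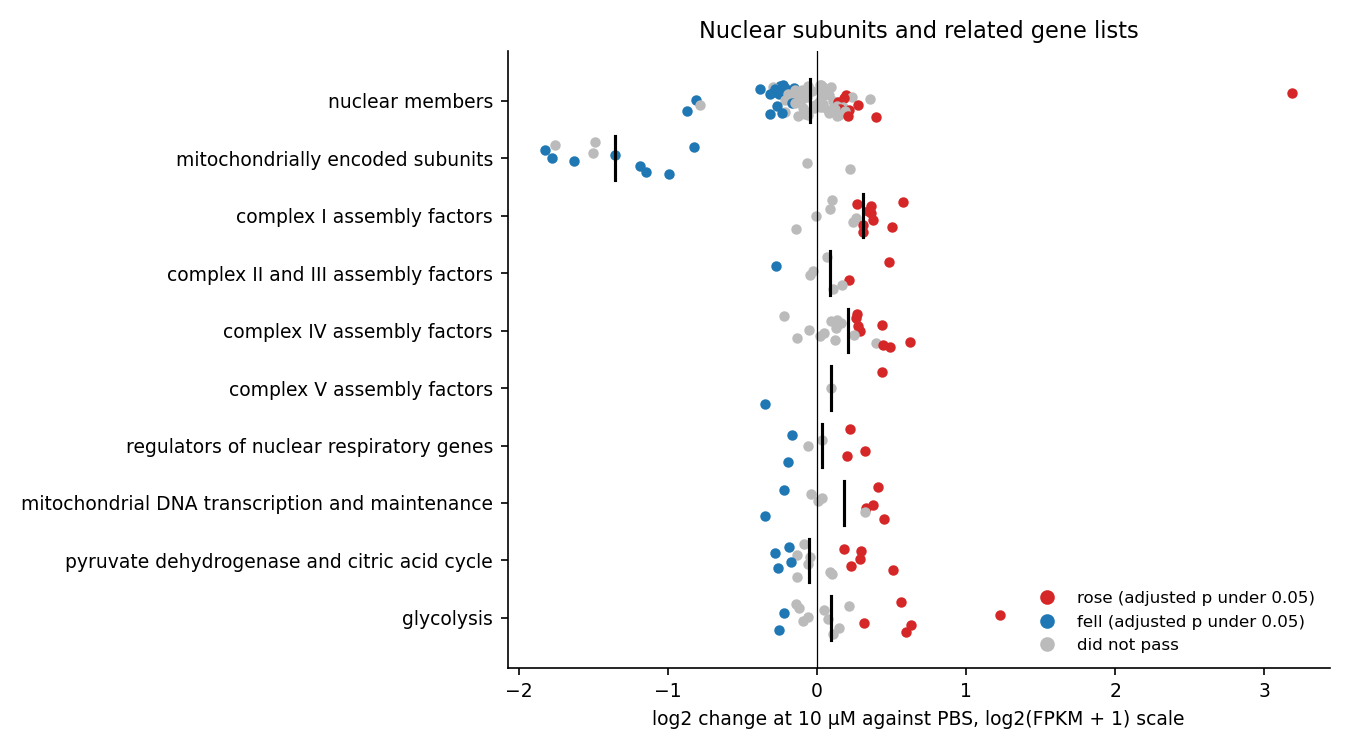
Log2 change at 10 µM against PBS, on the log2(FPKM + 1) scale, of the nuclear members and of 9 related gene lists, with a point per tested gene and a black bar at each median. Red points rose, blue points fell and grey points did not pass; the medians are -0.05 for the nuclear members, -1.35 for the mitochondrially encoded subunits and 0.31 for the complex I assembly factors.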

How the data were processed

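RNA sequencing of 6 samples in 3 groups of 2 was deposited by the authors as 1 table of FPKM values with 4 decimals. Reads were aligned with HISAT2 to GRCm38, per the submitters' processing notes. Not given in the sources used here are the counter, the annotation, strandedness and filtering. Each column name carries a prefix, DXM, that no label explains. IDs were matched to GENCODE M21 for 54409 of 54446 entries (99.93%). FPKM times exon length gave whole fragments within 0.1 for 98.8% to 99.0% of values of up to 20 fragments, and these fragments gave depth and the voom alternatives.

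Log2(FPKM + 1) of the 12722 genes with at least 1 FPKM in 2 samples was modelled in R 4.3.3 by limma 3.58.1 (intensity trend, all 6 samples, group as factor, two-sided, Benjamini-Hochberg over all genes), and the script was tested on simulated data. The members, lists and tests were chosen with earlier results of these data known. Named with values were, per comparison, the 8 largest called rises and falls, per complex the highest member with PBS and the strongest call, the isoform families, and per other list 3 genes with the smallest p. Ndufa9 and Ndufs3, as well as Ndufv1, Cox4i2, Cox6c, Atp5b, Atp5e, Atp5h, Atp5j, Atp5o, Ndufb1-ps, the copies, mt-Cytb and the mitochondrial transcripts that varied between replicates were chosen after their values were seen. Of these, Ndufa9 and Ndufs3 also meet the rule above. Copies were sought with blastn 2.17.0 among annotated transcripts. Alternatives were the pseudocount, filters, scaling, trend, samples fitted, replicate block, voom and each sample left out. Same-numbered samples did not deviate together (r of -0.05, 0.01 and 0.04). This shows no shared deviation, but cannot tell whether the samples were prepared as pairs, which the labels do not say.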

Additional observations from a re-analysis of the deposited data

How the results depend on the processing

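No member called in limma changed direction under an alternative: of 999 such values 658 kept their call and 341 lost it, and of 163 values of the members' counts of calls and median log2 changes 104 stayed close to the reported one, which means within 1.5 times for a count and, for a median, within the SD of the medians over pairs of samples (0.039 for 5 µM against PBS, 0.070 for 10 µM against PBS and 0.080 for one dose against the other). Where values moved, the cause was not tested. At 5 µM, 16 members rose as reported, but 7 did with no filter, 8 with median-of-ratios scaling, 7 without the intensity trend and 7 with the replicate number as a block. The 1 fall at 5 µM became 2 with median-of-ratios scaling, 2 with only the groups compared, 2 with voom on recovered fragments and 3 with voom on plain library totals, the last chosen after seeing the data. At 10 µM, the 9 rises became 5 with no filter, 2 with median-of-ratios scaling (median -0.12), 5 without the trend, 5 with only the groups compared, 4 with the replicate block, 3 with voom and 5 with voom on library totals. Between the doses, the 17 falls became 8 with no filter and 30 with voom. For the difference of the dose steps, the 1 rise was lost (0) with no filter, with voom and with voom on library totals, and the 5 falls became 0 with no filter, 8 with a filter of 5 FPKM, 1 without the trend, 1 with the replicate block, 16 with voom and 10 with voom on library totals. The sum of complex III at 10 µM was 0.960 times that of PBS with median-of-ratios scaling and 1.01 as reported.

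With each sample left out in turn, 1 arm held 1 sample, assumed to vary like the other groups. Rises at 5 µM then ranged from 3 (without PBS replicate 1) to 16, falls from 0 to 2, and the median from 0.067 to 0.13. At 10 µM rises ranged from 1 (without PBS replicate 1) to 12 (without the first 10 µM sample), falls from 9 to 17, and the median from -0.10 to 0.023, the last without the first 10 µM sample. Between the doses falls ranged from 3 (without the first 5 µM sample) to 15, and for the difference of the steps rises from 0 to 1 and falls from 0 to 2. Whether the replicate numbers pair the samples is not known, so what a call lost with the block means cannot be told. Low members and those with near-identical copies are limited by counting and by the unknown treatment of shared fragments.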
